A study of Rattus norvegicus with 4 samples.

Results

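The comparison described here sets the cerebellum of rats with depressive-like behaviour against the cerebellum of control rats. Each side is a single array of RNA pooled from 4 male rats, so 2 of the 4 samples of the series enter it. Genes were kept as members where a probe had at least 2 spots, was well above background on both arrays, and had spots that all differed in the same direction. Of 12779 genes with a named probe of at least 2 spots, 9826 were measured on both cerebellum arrays and 6937 were members, 3097 higher and 3840 lower on the depressive array. Larger differences are likelier to have spots of 1 sign, so counts in a list are to be read against all 9826 measured genes. Of these, 46.0% lay above 0, 1.07% were at least 1.5-fold higher and 0.539% at least 1.5-fold lower.

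The animals came from 106 rats scored in the forced swimming test, where time spent immobile in water is read as a depressive-like state. The 50 rats used for RNA were killed 1 week later under isoflurane at a fixed hour of the afternoon, after cold phosphate-buffered saline had been passed through the heart, and the cerebellar slice was 1 mm thick, cut 9.8 to 10.8 mm behind the bregma. Both groups share this handling, and the labels separate them by behavioural state alone. The other pair of arrays holds the prefrontal cortex of the 2 states, also 1 pool of 4 rats each. No strain or age is given in the sources used here. A pool hides the spread between its rats, and with 1 array a side no test was possible: every difference describes these 2 pools, and the SE printed with it is the technical spread between spots of a probe.

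The cerebellar cortex holds granule cells, which excite Purkinje cells through parallel fibres, and Purkinje cells send its only output. Behind and below it lies the fourth ventricle, lined by ependymal cells whose motile cilia move the cerebrospinal fluid, and containing choroid plexus, an epithelium that secretes this fluid. A coronal slice at this level can take in all of these, and in bulk RNA of such a slice a change in the number of cells of a type and a change in RNA per cell cannot be told apart.

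Both depressive samples have a free-text description that contradicts their title, source name and characteristics on which tissue they are, and the last 3 were followed here. Of 13 measured granule cell markers 12 were at least 2-fold higher in cerebellum than in prefrontal cortex in each state, and so were 10 Purkinje cell markers of 11 measured in control and 12 in depressive rats. The scanner file linked to the depressive cerebellum sample is matched by another sample's values, and the file used is the one whose values correlate with that sample's column of the deposited table at 0.9999. The depressive cerebellum array had the higher background noise, with an additive error of 6.99 in its file header against 4.03 on the control array, and 22206 against 23759 probes well above background. Over all measured genes the median log2 difference was -0.01, and 46.0% lay above 0. Scaling to the spike-in RNA moved this median to 0.15, so a log2 difference in the text is relative to the bulk of genes and would read about that much higher on the spike-in scale.

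Few genes differed by much. At least 2-fold higher on the depressive array were 24 genes (0.244% of the 9826 measured), and at least 2-fold lower were 8 (0.0814%). At 1.5-fold the counts were 105 higher (1.07%) and 53 lower (0.539%). As a share of the 6937 members these are 0.346%, 0.115%, 1.51% and 0.764%. Just inside the 2-fold limit lay Dynlrb2 at a log2 difference of 1.00 and Acta1 at -1.02, and just outside it P2ry4 at 0.99 and Uts2r at -0.97. At the 1.5-fold limit Cav3 (0.59) and Cct6b (-0.59) fell inside, Tp73 (0.58) and Ahsg (-0.58) outside. The 2 directions differed in brightness. Of the 53 lower genes 42 had a signal under 100 on their brighter array, against 18 of the 105 higher genes and 9.90% of all measured genes, and the median signal of the brighter array was 63.0 among the lower, 319.9 among the higher and 1728 among all. With normexp background correction 5 genes were at least 1.5-fold lower and 54 higher. Every spot passed 1.5-fold in 59 of the higher and 16 of the lower genes.

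**Figure D1:**
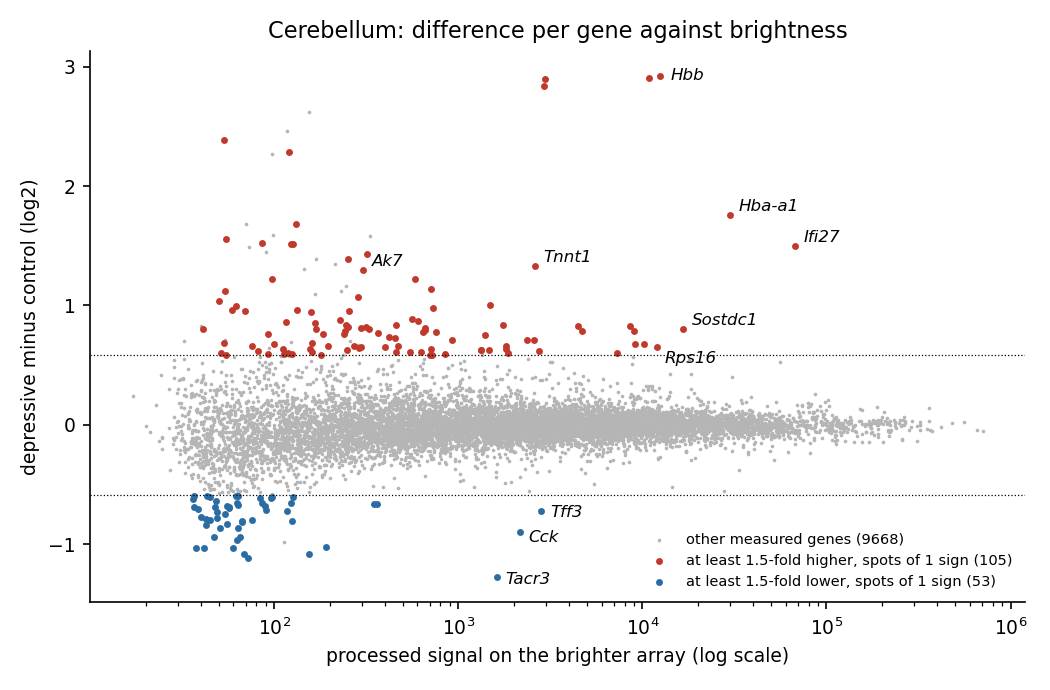
Log2 difference between the depressive and control cerebellum arrays (y axis) against the processed signal on the brighter array (x axis, log scale), 1 point per measured gene, with dotted lines at 1.5-fold. Red points are the 105 genes at least 1.5-fold higher and blue points the 53 at least 1.5-fold lower with all spots of 1 sign; most blue points lie at the dim end, apart from a few such as Tacr3, Cck and Tff3.

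Choroid plexus genes were higher as a group. All 15 measured genes of the 16 listed had spots of 1 sign, 14 of them higher and 1 lower, with a median log2 difference of 0.60 against -0.01 for all measured genes. Of these, 8 were at least 1.5-fold higher, where 1.07% of all measured genes were, and 0 were 1.5-fold lower. Kcnj13, an inwardly rectifying potassium channel of the epithelium's apical face, gave a signal of 4509 in the control pool against 8610 in the depressive one (log2 difference 0.83, SE 0.04). Sostdc1, a secreted antagonist of BMP and Wnt signals, gave 8907 and 16688, and its 10 spots ran from 0.74 to 0.85. Kl, which encodes klotho, a co-receptor for FGF23, gave 411 and 758, with spots at 0.62 and 0.93. Aqp1, the water channel of the same membrane, gave 1462 and 2573, with 10 spots between 0.68 and 0.76.

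Ttr and Igf2, singled out after their values were seen, differed least. Ttr, transthyretin, the carrier of thyroxine that the epithelium secretes in bulk, gave 681801 and 706335 (log2 difference -0.06, SE 0.04), while the brightest spot on each array read 761429 and 793651. Igf2, a growth factor made by choroid plexus and meninges, was at 0.11. Summed over the list, the signal relative to each array's 75th percentile was 282 in the control pool against 287 in the depressive one, but without Ttr it was 41.6 and 56.1. The list median kept its sign in all 14 alternative settings that followed the value table, between 0.58 and 0.76.

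Other genes outside the list, also chosen after their values were seen, had differences of the same size. Htr2c, the serotonin 2C receptor, which choroid plexus carries in abundance, gave 2341 and 4474 (0.83, SE 0.06). A second, much dimmer probe of Htr2c, of 2 spots, did not show it, with signals of 36.8 and 36.3 (-0.13). Msx1 and Lmx1a, transcription factors of the embryonic roof plate from which this choroid plexus arises, had log2 differences of 0.78 (10 spots from 0.75 to 0.86) and 0.71. Trpv4, an osmotically gated cation channel, was at 0.71, and Slit2, an axon guidance ligand, at 0.83. Claudins, the proteins that seal epithelial tight junctions, were measured for 12 genes, with 10 above 0 and a median of 0.22. At least 1.5-fold higher were 4, where 1.07% of all measured genes were. Those 4 were Cldn3 (0.81), Cldn19 (0.79), Cldn1 (0.66 over 8 spots) and Cldn22 (0.64), while Cldn5, the claudin of brain endothelium, lay at -0.00 and Cldn11, that of myelin, at -0.10.

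In the prefrontal cortex the choroid plexus genes did not share this direction. Only 10 of the 15 were well above background on both arrays there, 4 of them above 0, with a median of -0.16. Sostdc1 was lower on the depressive cortex array, with a signal of 64.7 in the control pool against 25.8 in the depressive one (log2 difference -1.398), and Ttr was at -2.15. Aqp1 (0.96) and Kcnj13 (0.57) were higher in the cortex too. The cortex signals of these genes are low beside those in the cerebellum, and the difference between the 2 tissues was not tested.

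**Figure D2:**
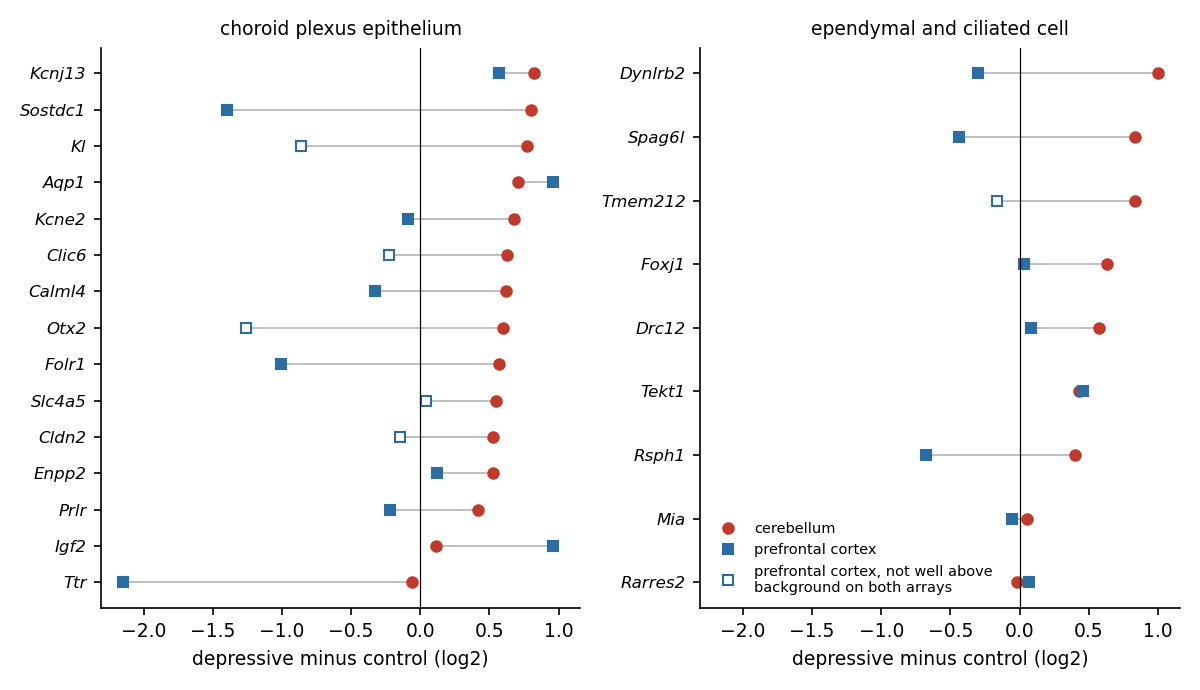
Log2 difference between the depressive and control arrays (x axis) for each measured gene of the choroid plexus list (left) and of the ependymal and ciliated cell list (right), with red circles for cerebellum and blue squares for prefrontal cortex, open where a cortex array was not well above background. In the cerebellum 14 of 15 and 8 of 9 genes lie above 0, and the cortex points scatter on both sides of 0.

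Genes of motile cilia were higher along with them. Of 12 ependymal and ciliated cell genes listed, 9 were measured and 8 had spots of 1 sign, all 8 higher. Over the 9 the median was 0.58, and 4 were at least 1.5-fold higher, where 1.07% of all measured genes were. Dynlrb2, a light chain of axonemal and cytoplasmic dynein, gave 688 and 1483 (1.00, SE 0.06), and a second probe of it read 1.06. Spag6l, of the central apparatus of the axoneme, gave 238 and 458 with spots at 0.67 and 1.005. A second probe of Spag6l, of 1 spot and so outside the rule for members, disagreed in size at 2.92 (156 and 1272). Tmem212 gave 127 and 244, and Foxj1, the transcription factor that switches on motile ciliogenesis, gave 1081 and 1809 with spots at 0.63 and 0.64. Rarres2 and Mia, 2 listed genes of broader expression named after their values were seen, lay at -0.02 and 0.05. The summed signal of the list relative to the 75th percentile was 1.76 in the control pool against 2.45 in the depressive one.

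A wider set, taken by symbol after the data were seen (axonemal dyneins, radial spokes, tektins, CFAP and dynein assembly genes), had 42 measured genes, of which 36 were above 0. Their median was 0.23, 9 were at least 1.5-fold higher, where 1.07% of all measured genes were, and 0 lower. Ak7, an adenylate kinase of motile cilia, was its largest, with a signal of 115 in the control pool against 305 in the depressive one and 9 spots from 1.21 to 1.404. Ccdc40, which sets the spacing of radial spokes and inner dynein arms, gave 344 and 730 (0.98, SE 0.12). By contrast the 11 measured genes of intraflagellar transport, which builds primary as well as motile cilia, had a median of 0.01, with 6 above 0 and 0 past 1.5-fold. The motile cilium median ranged from 0.04, among probes with 8 or more spots, to 0.39 with spike-in scaling. In the prefrontal cortex 20 of 40 such genes were above 0 and the median was -0.00. Ccdc40 was 0.74 there and Dynlrb2 -0.30.

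Of the 1013 genes with 8 or more kept spots and the firmest technical footing, 376 had spots of 1 sign and 8 passed 1.5-fold. Over all 9826 measured genes 105 were that much higher (1.07%) and 53 lower (0.539%), so such calls were rarer among the 1013. A call needs all spots of 1 sign, a stricter rule with more spots. It was met by 376 of the 1013 against 6937 of the 9826, and its part in the lower rate was not tested. The 8 were Ak7, Sostdc1, Msx1, Aqp1, Cldn1, Wfdc2 (0.63), Itgb6 (0.59) and, as the only lower one, Myoc (-0.66). Wfdc2 and Itgb6, a secreted epithelial protease inhibitor and an epithelial integrin, are named here after their values were seen. The 10 spots of Myoc, myocilin, ran from -0.80 to -0.49.

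Haemoglobin transcripts gave the largest differences. Hbb had a signal of 1530.06 in the control pool against 12504.5 in the depressive one, with both spots between 2.91 and 2.94 on the log2 scale, and Hba-a1 had 8207 and 29820 (1.75). A second, dimmer probe of Hba-a1, of 1 spot, read 2.63. Hbb, Hbb-b1, Hbe2 and Hbb-bs are related beta-type genes. Probe sequences were not compared, and their 4 values, 2.84 to 2.92, may be 1 transcript read several times. Of 28 genes listed for red blood cells and their precursors 18 were measured. At least 1.5-fold higher were 8, 4 of them those beta-type genes, where 1.07% of all measured genes were. Besides the globins, Alas2, which starts haem synthesis in erythroid cells, gave 41.1 and 126 (1.51, SE 0.29), and Ahsp, which stabilises free alpha chains, gave 93.0 and 161 (0.68), with 0.64 on its second probe. Slc4a1, the band 3 anion exchanger, had spots of opposite sign, -0.68 and 1.37.

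Further genes of this list were named after their values were seen. Gata1, the erythroid transcription factor, and Epb42, Rhag and Hbe1 were not well above background on either array. Klf1 lay at -0.13, Tfrc, the transferrin receptor, at -0.01 and Fech, the last enzyme of haem synthesis, at -0.14. The summed list signal relative to the 75th percentile was 23.0 and 38.7. In the prefrontal cortex the beta-type genes were at 2.30 to 2.57, Hba-a1 at 1.72 and Alas2 at 1.04, whereas Ahsp was at -0.43. Of 20 listed white blood cell and platelet genes 8 were measured, 4 above and 4 below 0, with a median of 0.02. How much blood was left in each slice was not measured, and its part in the result was not tested.

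Interferon response genes were higher by small amounts, except for one. Of 30 listed genes 22 were measured, 21 above 0, and all 16 with spots of 1 sign were higher. The median was 0.22, and 1 gene passed 1.5-fold, where 1.07% of all genes did. Ifi27, an interferon-inducible protein of mitochondria, gave 22136 and 67206, with both spots at 1.49 or above (1.495, SE 0.04). Irf7, the transcription factor that amplifies type I interferon production, gave 1071 and 1624 (0.49, SE 0.05). Ifit3, an antiviral protein that binds foreign RNA in complexes with its relatives, gave 142 and 208 (0.45, SE 0.28), and Ifi44 994 and 1400 (0.39, SE 0.05). The 2 spots of Ifit3 were at 0.17 and 0.73, so that its value is the loosest of the 4.

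Type I interferon acts through a transcription factor complex that binds a response element in the promoters of its targets. That element was searched as GAAANNGAAA on both strands in the 250 bases before the RefSeq start of each gene. It is shown in capitals for 3 of the genes just named, to let the shared letters be seen, each written 5' to 3' on the gene's own strand. The windows, in RefSeq build GRCr8, are chr6:128355062-128355311 on the plus strand for Ifi27, chr1:241527076-241527325 on the plus strand for Ifit3 and chr2:243303841-243304090 on the minus strand for Ifi44.
Ifi27: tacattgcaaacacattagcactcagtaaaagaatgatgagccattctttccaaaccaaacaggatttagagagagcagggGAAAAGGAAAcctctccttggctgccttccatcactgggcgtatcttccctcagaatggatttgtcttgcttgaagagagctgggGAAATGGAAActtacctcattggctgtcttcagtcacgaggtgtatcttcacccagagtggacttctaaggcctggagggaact
Ifit3: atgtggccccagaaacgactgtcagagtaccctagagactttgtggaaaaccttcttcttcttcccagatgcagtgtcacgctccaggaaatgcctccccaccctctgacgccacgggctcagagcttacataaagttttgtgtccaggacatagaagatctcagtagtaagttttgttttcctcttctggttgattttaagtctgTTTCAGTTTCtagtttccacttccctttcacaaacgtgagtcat
Ifi44: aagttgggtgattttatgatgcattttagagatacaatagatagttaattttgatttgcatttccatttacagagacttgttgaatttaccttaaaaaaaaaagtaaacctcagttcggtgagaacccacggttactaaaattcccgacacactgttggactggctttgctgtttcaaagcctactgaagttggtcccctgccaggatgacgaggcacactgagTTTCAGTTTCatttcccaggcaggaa

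Ifi27 holds 2 matches, read as GAAA first, and Ifit3 and Ifi44 hold 1 each, read as the reverse complement with TTTC first. A promoter was held for 16 of the 22 measured interferon genes, and 12 of the 16 had at least 1 match, against 3.32% of all 27457 promoters and 2.73% of the 7989 held for measured genes. The list was drawn up from genes known to answer interferon, so this share describes the list and says nothing of these samples. Among the 80 promoters held for genes at least 1.5-fold higher, 2 had a match (2.50%), and among the 42 held for genes at least 1.5-fold lower, 1 did (2.38%). None of the 34 promoters held for motile cilium genes or the 8 held for choroid plexus genes had one. An X-box, searched as GTTNCCNNGGNAAC, the letters read by RFX factors of ciliated cells, was in 2 of those 34 motile cilium promoters (5.88%). It was in 0.353% of all promoters and 0.438% of those held for measured genes. Of the 7 held for the ependymal and ciliated cell list and the 80 for genes at least 1.5-fold higher, 0 had one.

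The interferon genes were also higher in the prefrontal cortex, 21 of 22 above 0 with a median of 0.41. Ifi27 was at 0.95 there and Irf7 at 0.93, against 1.495 and 0.49 in the cerebellum, so neither tissue had the larger value for both. Ifi27l2b, a relative of Ifi27, differed in the cerebellum (298 and 707, log2 difference 1.14, SE 0.08, and 0.97 on a second probe) but lay at -0.03 in the cortex. Lgals3bp, a secreted glycoprotein induced by interferon, named after its value was seen, gave 4847 and 9017 (0.79) and was at 0.51 in the cortex. Complement and acute phase genes had 14 of 15 above 0 and a median of 0.27, with 1 past 1.5-fold, and antigen presentation genes 15 of 16 above 0 and a median of 0.11. Hp, haptoglobin, was the complement list's largest at 0.61, followed by C3, the central complement component, at 0.43. The complement median fell to 0.03 among probes with 8 or more spots. Of 17 microglia and macrophage genes 13 were above 0 with a median of 0.11 and 0 past 1.5-fold, and Cd163, a scavenger receptor for haemoglobin on border macrophages, was lower at -0.49.

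Among the other named higher genes were several that belong to no list. Tnnt1, troponin T of slow skeletal muscle, gave 958 and 2599 (1.33, SE 0.04), with 1.43 on a second probe of 1 spot, and was at -0.36 in the cortex. Of 16 skeletal and heart muscle genes listed 13 were measured, with a median of 0.03 and 8 above 0, and Acta1, skeletal actin, lay at -1.02 with spots at -1.82 and -0.23. Acsm5, a mitochondrial acyl-CoA synthetase, gave 89.4 and 252 (1.39, SE 0.17), but its other probe, a single dim spot, read -0.10. Clca1, a secreted regulator of chloride channels, gave 125 and 284 with spots at 0.87 and 1.27 and was at 0.93 in the cortex. Stx17, the syntaxin of autophagosomes, and Hpdl, a mitochondrial oxygenase, each rested on 1 spot of 2: Stx17 had spots at 0.01 and 2.85 and Hpdl at 0.04 and 2.40. Hpdl also had 8 spots of other probes within 2 rows and 2 columns that were 2-fold higher as well.

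The lower genes of good brightness were few. Tacr3, the receptor for neurokinin B, gave 1622 and 720 (-1.28, SE 0.06), the only 1 of the 15 named lower genes past 2-fold. Cck, the neuropeptide cholecystokinin, gave 2156 and 1248 with spots at -0.95 and -0.84. Tff3, a trefoil peptide, gave 2830 and 1847 (-0.72, SE 0.05). Nrgn, neurogranin, a calmodulin-binding protein of forebrain dendrites, gave 364 and 247 (-0.67, SE 0.10). None of these 4 differed in the same direction by as much in the cortex, where Tacr3 was at 0.08, Cck at -0.15, Tff3 at 0.28 and Nrgn at -0.04.

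After Myoc the named lower genes all lay under 1.5-fold, from -0.56 to -0.48. Of them 3 were also lower in the cortex by about as much: Pxmp4, a peroxisomal membrane protein, at -0.53 and -0.54, Rnf187, a RING-finger ubiquitin ligase, at -0.52 and -0.43, and Gstm4, a glutathione transferase, at -0.49 and -0.47. Rnf187 had a second probe at -0.13, and Gstm4 one of 1 spot at -0.28. Apoc1, an apolipoprotein made by astrocytes and macrophages, was at -0.50 over 10 spots from -0.63 to -0.43 and at -0.31 in the cortex. Mrps15, of the mitochondrial ribosome, was at -0.52 and at -0.07 in the cortex. Ugt1a9 (-0.56), Krt27 (-0.52) and Or6al2 (-0.51) had no spot above -0.36, but Hivep3 (-1.005 and -0.10) and Chm (-0.88 and -0.08) rested on 1 spot.

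**Figure D3:**
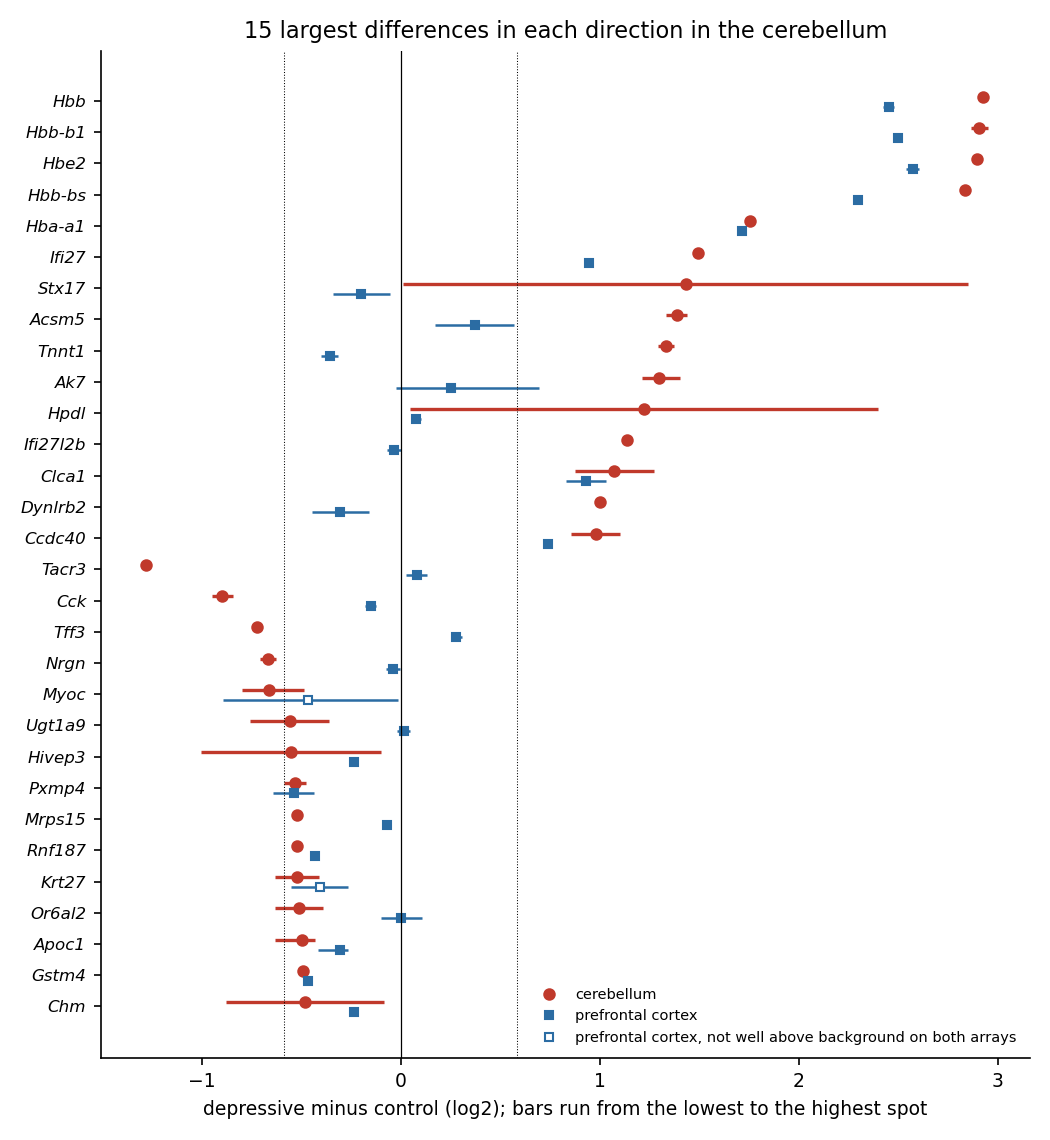
Log2 difference between the depressive and control arrays (x axis) for the 15 genes with the largest differences in each direction in the cerebellum (y axis), with red circles for cerebellum and blue squares for prefrontal cortex (open where a cortex array was not well above background), bars from the lowest to the highest spot and dotted lines at 1.5-fold. The globins, Ifi27, Clca1 and Ccdc40 lie past 1.5-fold in both tissues, and the long bars of Stx17, Hpdl, Hivep3 and Chm mark genes whose spots disagree.

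Markers of the cerebellar neurons themselves differed little. The Purkinje cell list had 10 of 11 measured genes below 0, a median of -0.10 and 0 genes past 1.5-fold. Pcp2, a modulator of G-protein signalling found in Purkinje cells, was at -0.14, Pvalb, the calcium buffer parvalbumin, at -0.13 and Homer3, a scaffold of metabotropic glutamate receptors, at -0.27. Of 13 granule cell genes 11 were below 0, with a median of -0.04, the largest being Zic2, a zinc finger factor, at -0.42. Both medians turned positive on the spike-in scale, which shifts every gene alike, the Purkinje median to 0.06 and the granule median to 0.12. They stayed below the all-gene median of 0.15 on that scale. Summed relative to the 75th percentile, the Purkinje list gave 317 and 296 and the granule list 160 and 158.

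The list of Golgi, unipolar brush and molecular layer interneurons held the 2 largest named lower genes, Tacr3 and Cck, but its median over 13 genes was -0.05 and 9 were below 0. Npy, neuropeptide Y, was at 0.30 over 10 spots from 0.23 to 0.36. Brainstem neuron genes, which a slice at this level can also hold, had 8 of 22 listed measured, 4 on each side of 0. Slc17a6, the vesicular glutamate transporter of brainstem and deep nuclear neurons, was at 0.40 over 10 spots from 0.33 to 0.48. Of 9 measured cerebral cortex neuron genes 5 were above 0 with a median of 0.02, and Fezf2 was not well above background on either array. Astrocyte and Bergmann glia genes (median 0.05), oligodendrocyte and myelin genes (-0.02) and oligodendrocyte precursors (0.03) had 0 genes past 1.5-fold. Endothelial genes had 10 of 13 above 0 with a median of 0.13, and meningeal fibroblast genes 12 of 15 with a median of 0.16 against 0.71 in the cortex.

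**Figure D4:**
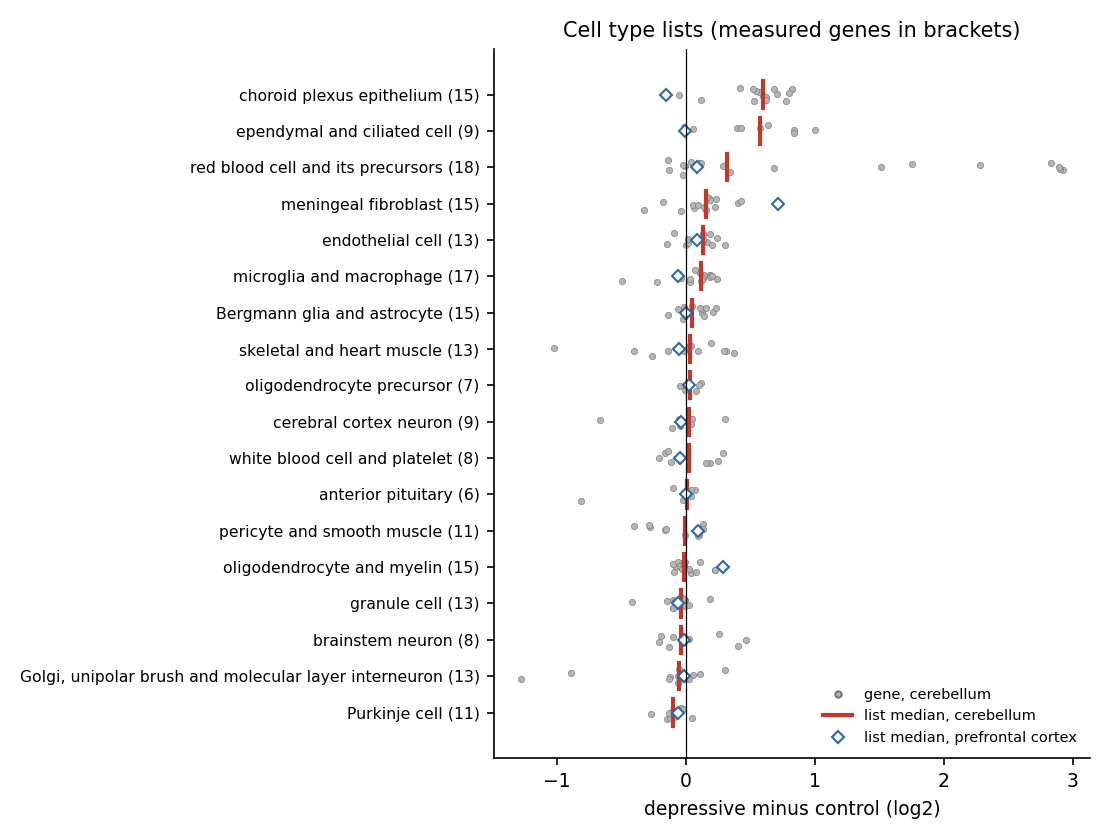
Log2 difference between the depressive and control cerebellum arrays (x axis) for the measured genes of 18 cell type lists (y axis, number of measured genes in brackets), with grey points for genes, red bars for the list median and open blue diamonds for the list median in the prefrontal cortex. The choroid plexus and ciliated cell medians, 0.60 and 0.58, stand to the right of the other 16, which lie between -0.10 and 0.32.

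Receptor and channel genes lay slightly below the bulk of measured genes, of which 46.0% lay above 0. Of 31 voltage-gated channel genes 26 were below 0 (median -0.07), of 22 glutamate receptor genes 18 (median -0.09), of 21 GABA and glycine genes 18 (median -0.06), of 20 synaptic vesicle genes 17 (median -0.07) and of 22 postsynaptic scaffold genes 18 (median -0.07). In all 5 lists together 2 genes passed 1.5-fold, both dim glutamate receptors: Grm5 at -1.08 (68.1 and 34.6, SE 0.47) and Grik3 at -0.80 (75.3 and 46.6, SE 0.29). Hcn2, a pacemaker channel, gave 1324 and 1143 (-0.32, SE 0.05), and Grin1, the obligate NMDA receptor subunit, 709 and 632 (-0.27, SE 0.07). Of 31 phosphodiesterase, RGS and kinase genes 24 were below 0. Spike-in scaling shifts every gene by the same amount. With it all 5 receptor, channel and synapse medians turned positive, between 0.07 and 0.10, still below the all-gene median of 0.15 on that scale.

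Of 20 measured monoamine signalling genes 9 were above 0, with a median of -0.02, and 2 were at least 1.5-fold higher, Htr2c, on the brighter of its probes, and Tph1, a tryptophan hydroxylase that starts serotonin synthesis outside the raphe. Tph1 gave 308 and 607 (0.87, SE 0.09) and was at 0.34 in the cortex from a signal of 20.3 on the control array. Adrb1, a beta-adrenergic receptor, was at -0.32 (SE 0.22). Neuropeptides and their receptors had a median of 0.01 over 28 genes. Pdyn, prodynorphin, was higher but dim (33.2 and 69.2, SE 0.47), so that Tacr3 and Cck were the list's only bright genes past 1.5-fold.

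Glucocorticoid targets, genes driven by the stress hormone receptor, had 16 of 23 above 0 with a median of 0.06 and 0 past 1.5-fold. Their largest were Mt1, metallothionein 1, at 0.29 and Gjb6, connexin 30, at 0.23 over 10 spots from 0.18 to 0.31. Clock genes had a median of -0.00 over 15 genes. Of 20 immediate early genes 9 were above 0, and Nr4a3 was the 1 past 1.5-fold (0.63, SE 0.10), followed by Nr4a2 at 0.39 and Fos at 0.35. In thyroid hormone and retinoid handling 10 of 20 were above 0 with a median of -0.01, but Lrat, which makes retinyl esters, was at 1.56 from a dim 17.3 to 54.8 (SE 0.47) and Stra6, the receptor for retinol-binding protein, at 0.50. Neurotrophin and growth factor genes had a median of -0.02 over 23 genes.

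Lists of basic cell functions stayed close to 0. Medians were -0.00 for 22 ribosomal protein genes, -0.01 for 25 oxidative phosphorylation genes, -0.01 for 14 housekeeping genes, 0.01 for 18 heat shock genes and -0.00 for 23 hypoxia and glycolysis genes. Of all 61 ribosomal proteins measured by symbol 1 was at least 1.5-fold higher, where 1.07% of all measured genes were, and 0 lower. This was Rps16, singled out after its value was seen, which gave 7054 and 11951 (0.65, SE 0.04). It was at 0.75 in the cortex. Olfactory receptors, mostly dim in brain, had 134 of 1007 genes measured, 106 of them below 0, with a median of -0.16. That median was -0.08 after normexp and 0.47 with no background filter.

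**Figure D5:**
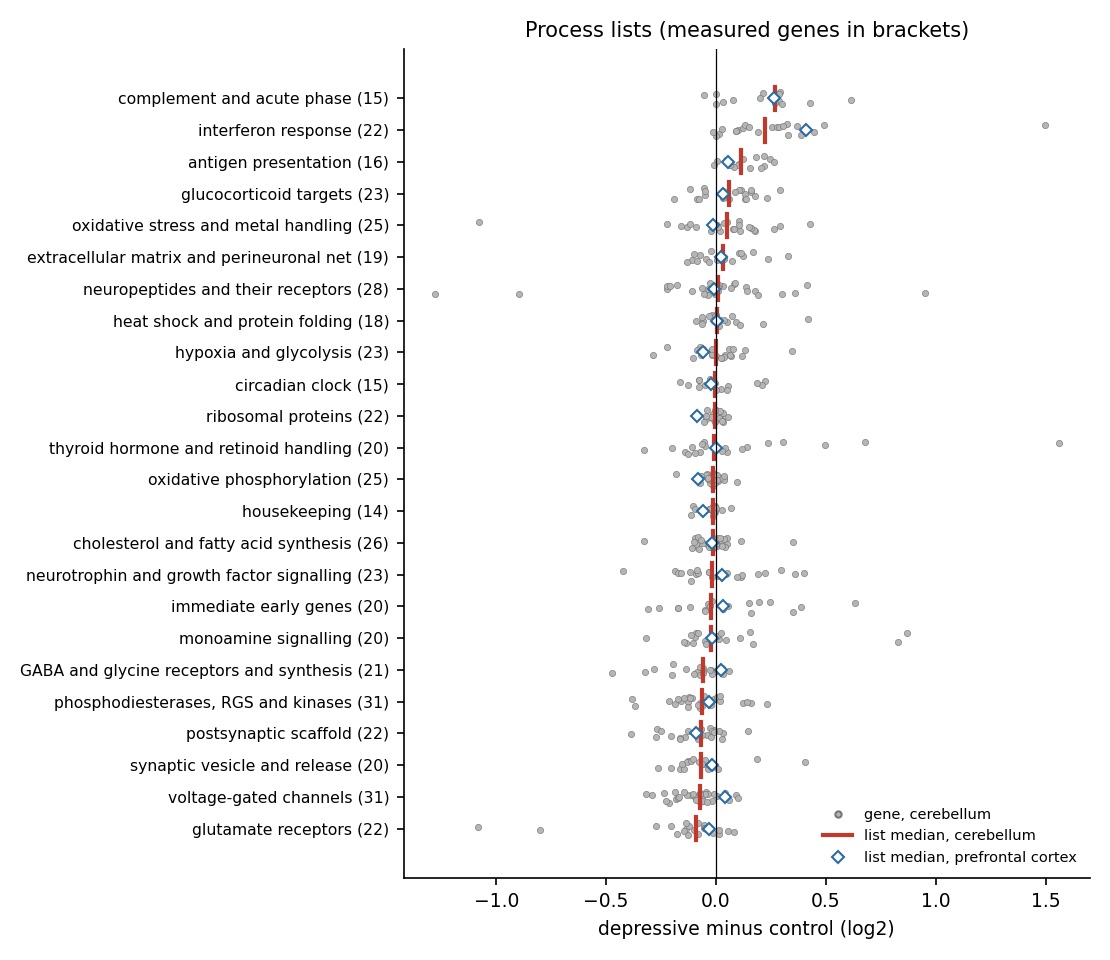
Log2 difference between the depressive and control cerebellum arrays (x axis) for the measured genes of 24 process lists (y axis, number of measured genes in brackets), with grey points for genes, red bars for the list median and open blue diamonds for the list median in the prefrontal cortex. Complement, interferon and antigen presentation genes have the highest medians, 0.27, 0.22 and 0.11, and glutamate receptors the lowest, -0.09.

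Genes seen on only 1 of the 2 arrays were counted apart. Counted were genes, out of 12779 with a named probe of at least 2 spots, whose spots shared 1 sign. Their brighter signal also had to exceed the lowest passing signal of the other array. Above background on the control array alone were 366, 22 of them at least 2-fold lower, and on the depressive array alone 44, 35 at least 2-fold higher. The depressive array had fewer probes well above background, 22206 against 23759, and its part in these counts was not tested. The largest bounds among the lower were those of pituitary hormones, Gh1 (at least 62.5-fold), Prl (at least 18.4-fold) and Cga (at least 5.002-fold). Fabp6, an ileal bile acid-binding protein, was 7.82-fold lower on the mean of 2 spots. Those spots disagreed in size, at -5.42 and -0.51, so the Fabp6 value is not a minimum. The dim side of each bound is the higher of the gene's own signal and the lowest signal well above background, 15.2 on the depressive array and 8.36 on the control array. Pou1f1, the transcription factor of the cells that make growth hormone, prolactin and thyrotropin, was measured on both arrays at -0.82 (spots -1.27 and -0.37), whereas Pomc was at -0.10. Other pituitary markers such as Pitx1 and Lhb were at 0.04 and 0.07, and Ghrhr was not well above background on either array. Tshb was above background on the control array alone (18.3 and 6.28), and Nr5a1 on the depressive array alone (7.59 and 22.7). In the cortex the signals were low, 28.7 and 4.03 for Gh1, 9.87 and 4.42 for Prl and 28.4 and 16.6 for Cga, control first. The list's part in other results was not tested.

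The 4 largest values among the higher, each from the mean of 2 spots, were led by Lhx9, a LIM-homeodomain factor (7.24-fold). The others were Or6d12c and Or9g10, olfactory receptors (5.50-fold and 5.37-fold), and Defal1, an alpha-defensin (5.05-fold). In all 4 the spots of the probe disagreed in size, those of Lhx9 lying at 0.37 and 5.34, so none of these values is a minimum.

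Set beside the prefrontal cortex pair, a minority of calls was shared, though a larger share than among all genes, for those lower on 2 genes only. In the cortex 10137 genes were measured, 22 at least 2-fold higher (0.217%) and 11 lower (0.109%), and 98 at least 1.5-fold higher (0.967%) and 50 lower (0.493%). The genes at least 1.5-fold higher in both tissues numbered 14. Those lower in both numbered 2 of the 53 lower in the cerebellum, against 0.493% of all genes measured in the cortex. The 14 are 13.3% of the cerebellum list, against 0.967% of all genes measured in the cortex, and 14.3% of the cortex list. They include the beta-type globin genes, which may be 1 transcript. Of the 105 higher genes 54 had the same sign in the cortex, and of the 53 lower genes 37 did, against 57.4% of the 9599 genes measured in both tissues by the same probe. The 2 genes at least 1.5-fold higher in the cerebellum and at least 1.5-fold lower in the cortex were Sostdc1 and Cldn3.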

How the data were processed

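Groups come from each sample's title and source name. Per the file headers, the software was Agilent Feature Extraction 10.7.1.1 (protocol GE1_107_Sep09), and the deposited scanner files give a background-subtracted processed intensity per spot with flags, 1 colour (Cy3) per array; 400 ng of RNA was labelled, per the labels' protocols. The deposited value table, 23207 probes as a linear intensity scaled by the authors in a way not given in the sources used here, was used to pair samples with scanner files and as an alternative. The deposited flags (a score of 0 or 1 per spot) marked outliers, which were left out with control spots, and spots well above background.

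Log2 of the processed signal, minus each array's 75th percentile over probes (2835 for control and 3053 for depressive cerebellum), was averaged per probe. At least 50% of a probe's spots had to carry the flag for the probe to pass. Probes were named through RefSeq accessions of assembly GRCr8 (18355 probes), and a gene with several probes is represented by the brightest. The SE is the larger of the spread between spots at the same brightness (20 bins) and the probe's own. Saturated measured genes numbered 0. Promoters are those RefSeq gives for GRCr8; the array header names rn4, and no array coordinates were used.

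The 15 largest differences each way among members with a usual symbol and a brighter array above 243 (the 25th percentile among probes that pass) are named, with 4 bounds each way and up to 4 genes per list; further genes were named after their values were seen, and not all are marked in the text. Members and the 42 gene lists were chosen with earlier results of these data known. The alternatives were fixed beforehand except for 2. Normexp (offset 50) used the median signal, since the mean signal the design assumed was not used here. Calculations ran in Python 3.11.15 with pandas 2.3.3 and numpy 2.4.6, and in R 4.3.3 with limma 3.58.1, and were tested on simulated spots. Some genes are not reported here.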

Additional observations from a re-analysis of the deposited data

Results flagged for a closer look

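Sostdc1 differed in opposite directions in the 2 tissues, at a log2 difference of 0.80 in the cerebellum and -1.398 in the prefrontal cortex, each past 1.5-fold with all spots of 1 sign. Cldn3 did the same, at 0.81 in the cerebellum and -0.59 in the cortex. With 1 array per group the difference between tissues was not tested, and the cortex signals of both genes were under 100.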

How the results depend on the processing

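No paired analysis was possible because each group has 1 array, and for the same reason no replicate could be left out. The main counts were 105 and 53 genes at least 1.5-fold higher and lower and 24 and 8 at 2-fold. In the same order, normexp gave 54, 5, 9 and 1, the stricter filter on dim probes 57, 5, 10 and 1, every spot past the fold 59, 16, 13 and 1, and leaving out probes beside spots that moved alike 68, 31, 11 and 5 (fewer genes tested). Spike-in scaling gave 191, 24, 39 and 1, no background filter 1218, 394, 107 and 122, and probes with 8 or more spots 7, 1, 1 and 0. Quantile normalization gave 32 genes 1.5-fold lower and 2 at 2-fold. At 2-fold higher, no sign rule gave 38, the first spot alone 39 and the second 45. Median scaling, single-spot probes, the mean over probes and the value table kept all 4 counts within 1.5 times. Every spot past the fold and 8 or more spots were chosen after the data were seen.

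With scanner files as linked to the samples, which sets a cortex array against a cerebellum array, the counts were 2084, 1894, 1271 and 926, and Ak7 (-2.03), Clca1 (-0.82), Dynlrb2 (-0.61), Ccdc40 (-3.17), Tacr3 (0.49), Cck (8.16) and Nrgn (8.35) turned sign. Under the other settings no named gene past 1.5-fold did. The choroid plexus, ciliated cell, red cell and interferon medians stayed above 0, the lowest at 0.58, 0.36, 0.20 and 0.17. Dim genes limit what can be read: the SE between spots was 0.47 for signals such as those of Grm5 and Pdyn. It was larger in some brighter genes whose spots disagreed, 1.42 for Stx17 and 1.18 for Hpdl.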
